A study of Mus musculus with 6 samples.

Results

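The 10 genes read here mark the dendritic cell subsets, and were measured in RNA from mouse hearts: Xcr1, Clec9a, Batf3, Irf8, Zbtb46, Flt3, Ccr7, Fscn1, Cd209a and Siglech. They were taken by name, as genes of conventional, migratory and plasmacytoid dendritic cells, by a rule that uses no measured value. These are 10 of the 55487 gene identifiers counted. All 10 had enough reads to be tested, among 15707 genes tested in all. The cells were Cd11b+ non-myocytes of C57BL/6 hearts, enriched on magnetic beads after enzymatic digestion. The KO group was 3 pools of Egfr mKO hearts, in which Egfr is deleted in myeloid cells, and the WT group was 3 pools of Egfr f/f hearts, in which Egfr is floxed and not deleted. Each pool held 5 or 6 hearts, so the pool is the replicate and differences between single animals cannot be seen. No source used here gives the driver of the myeloid deletion, the age of the mice or the purity after the beads.

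Dendritic cells take up antigen in tissues and present it to T cells. Conventional type 1 cells carry Xcr1 and Clec9a and cross-present antigen from dead cells, while type 2 cells and cells derived from monocytes are the broader Cd11b+ populations. A mature dendritic cell gains Ccr7, which guides it along lymphatic vessels to the draining lymph node, and plasmacytoid cells make type I interferon. Several of these genes are also read in other leukocytes, among them Irf8 and Ccr7 in B cells and Ccr7 in T cells.

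Libraries held 17780707 to 27485129 reads in genes, and levels are TMM-scaled CPM, which are counts relative to library size. Egfr stood at 17.3 ± 1.29 CPM in KO pools, against 47.5 ± 6.29 in WT pools (SD, n = 3 each, edgeR adjusted p = 0.045). That call was lost in 9 of 20 other settings. Endothelial and fibroblast genes were lower in KO pools too (median log2 fold changes -1.08 and -1.11, against -1.46 for Egfr). How much of the Egfr difference came from the deletion in myeloid cells was not tested. Lyz2, a lysozyme of macrophages and the locus behind a common myeloid Cre, fell to 18.6 ± 1.06 CPM in KO pools, against 5034 ± 1449 in WT pools (edgeR adjusted p = 0.000178). Csf1r, the growth factor receptor of macrophages, stood at 3051 ± 141 CPM in KO pools and 2297 ± 686 in WT pools, so RNA of myeloid cells was abundant in every library. A few libraries stood apart in other ways. KO pool 1 and WT pool 1 carried Y-linked transcripts, with a summed level of 234 CPM in that KO pool and 240.2 CPM in that WT pool, while the other 4 pools were below 1 CPM. WT pool 1 also held 1876 CPM of erythroid transcripts, against at most 84.7 CPM in any KO pool and 142 CPM in any other WT pool. WT pool 2 held 1254 CPM of T cell transcripts, against 82.8 to 399 CPM in KO pools and 38.7 to 45.5 CPM in the other WT pools. The labels do not say which animals of a pool were male.

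Ccr7 stood furthest apart of the 10 dendritic cell genes, at 1.95 times the WT level in KO pools, followed by Clec9a and Siglech, while Xcr1, Zbtb46 and Fscn1 had negative fold changes within their spread. None of the 10 passed the edgeR test at an adjusted p of 0.05, and DESeq2 called 1, Ccr7. Over all 15707 genes 2 passed, both lower in KO pools, which is 0.0127% in either direction and 0% for higher in KO. The 10 genes had a median log2 fold change of 0.43 for KO over WT, with 7 positive and 3 negative, against a median of 0.0072 over all genes tested. At an unadjusted p under 0.05, 3 of the 10 were higher in KO pools (Clec9a, Ccr7 and Siglech) and 0 lower, against 4.77% higher and 10.6% lower over all genes. Every KO pool lay above every WT pool for 3 of the 10 (Clec9a, Flt3 and Ccr7), against 9.59% of all genes, and the reverse held for 0 of the 10, against 10.1%. Because these are bulk libraries, fewer cells of a type and less RNA per cell cannot be told apart in any of these values.

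**Figure D1:**
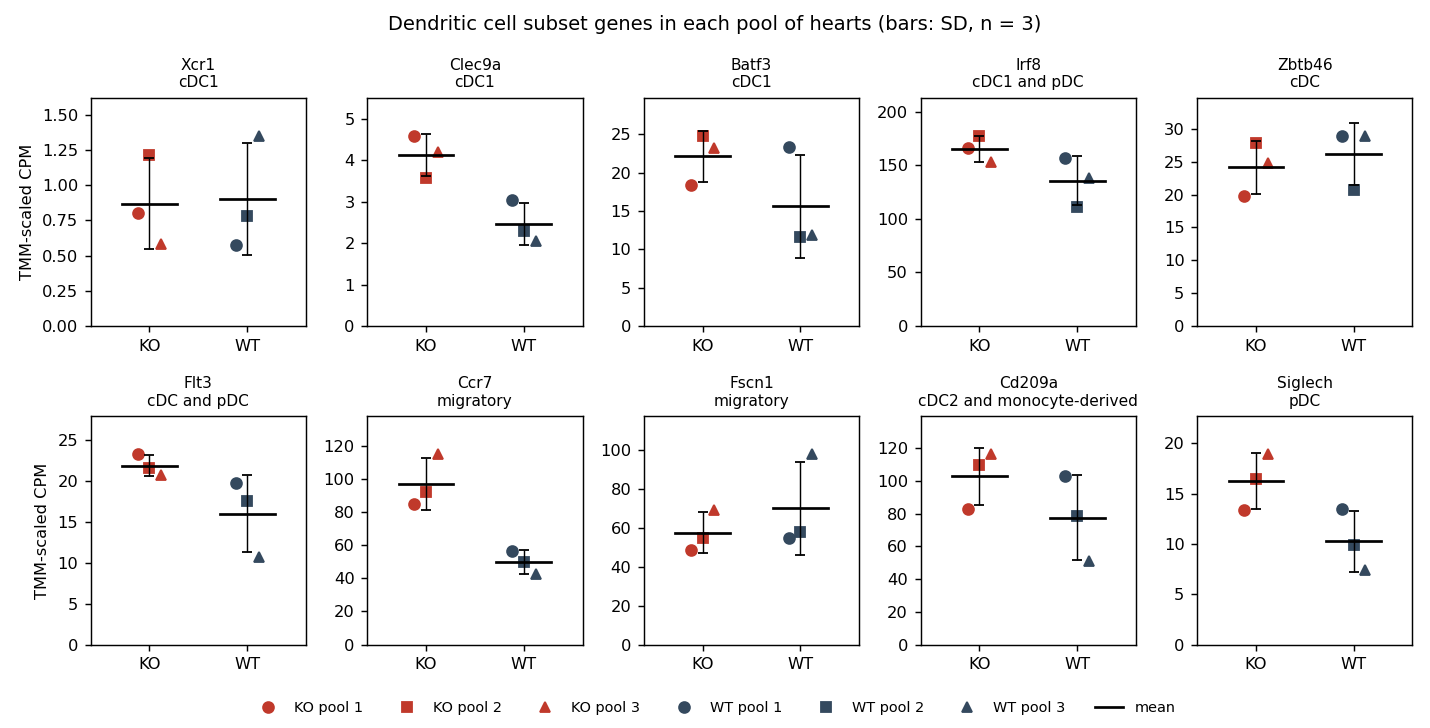
Level of each of the 10 dendritic cell genes in the 3 KO and the 3 WT pools, in TMM-scaled CPM on linear axes from 0, with 1 point a pool, a line at the mean and a bar for the SD (cDC1, cDC2 and pDC are type 1, type 2 and plasmacytoid cells). The KO points lie above all WT points for Clec9a, Flt3 and Ccr7, and the groups overlap for the other 7 genes.

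Of the genes of conventional type 1 cells, the chemokine receptor Xcr1 was close to the limit of detection. Xcr1 (ENSMUSG00000060509, chr9:123852315-123862029 of GRCm38, minus strand) was counted 21, 31 and 15 times in KO pools 1, 2 and 3, and 15, 15 and 29 times in WT pools 1, 2 and 3. That is 0.802, 1.22 and 0.582 CPM in KO pools and 0.577, 0.782 and 1.35 CPM in WT pools. KO pool 2 and WT pool 3 were the highest of their groups, and the groups overlapped (log2 fold change -0.05, SE 0.47, edgeR adjusted p = 0.967). Counting error alone gave WT pool 3 a 95% Poisson interval of 0.904 to 1.94 CPM.

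Clec9a, a lectin receptor for actin exposed on dead cells (ENSMUSG00000046080, chr6:129408862-129424763, plus strand), was better covered. It had 4.58, 3.57 and 4.19 CPM in KO pools (120, 91 and 108 reads), against 3.04, 2.29 and 2.05 CPM in WT pools (79, 44 and 44 reads). All 3 KO pools were above all 3 WT pools, with means of 4.12 ± 0.509 CPM in KO pools and 2.46 ± 0.516 CPM in WT pools. The log2 fold change was 0.74 with an SE of 0.25, and the edgeR adjusted p was 0.247. Exons of Clec9a overlap those of Clec1b on the same strand, and by HTSeq's default rule a read that overlaps both genes is counted for neither, so Clec9a can be undercounted.

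The transcription factors Batf3 and Irf8, both needed for type 1 cells to develop, overlapped between the groups. Batf3 (ENSMUSG00000026630, chr1:191097847-191108945, plus strand) had 18.4, 24.8 and 23.2 CPM in KO pools and 23.4, 11.6 and 11.9 CPM in WT pools. WT pool 1 lay inside the KO range and the other two WT pools lay below it (22.1 ± 3.31 CPM in KO pools against 15.6 ± 6.72 CPM in WT pools, log2 fold change 0.50, SE 0.28, edgeR adjusted p = 0.446). Irf8 (ENSMUSG00000041515, chr8:120736358-120756694, plus strand) had 166, 177.5 and 153 CPM in KO pools and 157, 111 and 138.5 CPM in WT pools, so WT pool 1 lay inside the KO range again. The log2 fold change of Irf8 was 0.29, with an SE of 0.15 and an edgeR adjusted p of 0.395, and it became -0.10 when libraries were scaled to their pan-leukocyte genes.

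The next pair is shared by conventional dendritic cells as a class: the repressor Zbtb46 and the cytokine receptor Flt3, whose ligand sustains their numbers. Zbtb46 (ENSMUSG00000027583, chr2:181387762-181459426, minus strand) had 19.75, 27.8 and 24.9 CPM in KO pools and 28.9, 20.7 and 28.9 CPM in WT pools. The groups overlapped (24.15 ± 4.08 CPM in KO pools against 26.2 ± 4.74 CPM in WT pools, log2 fold change -0.12, SE 0.18, edgeR adjusted p = 0.805). Zbtb46 is also known from endothelial cells, and endothelial genes were lower in KO pools (given with the other cell types), so that its dendritic share was not tested. Flt3 (ENSMUSG00000042817, chr5:147330741-147400489, minus strand) had 23.3, 21.6 and 20.7 CPM in KO pools, against 19.8, 17.5 and 10.7 CPM in WT pools. All KO pools were above all WT pools, and WT pool 3 was the lowest of the 6 (21.9 ± 1.30 CPM in KO pools against 16.01 ± 4.74 CPM in WT pools, log2 fold change 0.45, SE 0.22, edgeR adjusted p = 0.379).

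Of the member windows on record, the one of Zbtb46 holds the rarest of the motifs searched. The window below is 250 bases before to 50 after a RefSeq start of Zbtb46 (GRCm38.p6, chr2:181424339-181424638, minus strand). That start is internal: the annotated gene spans chr2:181387762-181459426, and on the minus strand its upstream end is at 181459426. The window is therefore sequence inside the gene and not the promoter at its upstream end. Capitals mark the AP-1 to IRF composite element, searched on both strands as the IRF half-site GAAA followed directly by an AP-1 site (TGANTCA), which begins 61 bases before the start.
Zbtb46: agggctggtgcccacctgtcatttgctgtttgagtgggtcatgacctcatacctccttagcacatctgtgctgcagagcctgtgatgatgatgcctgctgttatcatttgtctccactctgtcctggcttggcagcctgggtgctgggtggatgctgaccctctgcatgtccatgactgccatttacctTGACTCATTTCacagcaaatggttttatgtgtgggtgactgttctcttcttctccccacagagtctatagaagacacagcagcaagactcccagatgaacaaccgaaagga
The element is in 41 of 32851 such windows (0.125%), and the AP-1 site, which overlaps it here, is in 2565 (7.81%). A match is a description of letters and not a site shown to be bound. Windows were on record for 9 of the 10 genes, with 2 for Irf8.

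Ccr7, the homing receptor of mature dendritic cells, had the largest difference of the 10. Ccr7 (ENSMUSG00000037944, chr11:99144196-99155077, minus strand) had 84.8, 92.1 and 115 CPM in KO pools, against 56.6, 50.05 and 42.6 CPM in WT pools. Each KO pool was above each WT pool, and the lowest KO pool and the highest WT pool were the Y-positive pair, KO pool 1 and WT pool 1. Means were 97.2 ± 15.7 CPM in KO pools and 49.8 ± 7.02 CPM in WT pools, a ratio of 1.95, with a log2 fold change of 0.97 and an SE of 0.16. The edgeR p was 0.000286, rank 27 of 15707 genes, and the adjusted p was 0.148, short of the threshold. DESeq2 called it (log2 fold change 0.97, adjusted p = 8.34e-05), beside 1.13% of all genes called higher in KO. Without an expression filter edgeR called it too (adjusted p = 0.00196), beside 0.479% of genes called higher. Without WT pool 1 the log2 fold change was 1.07 (edgeR adjusted p = 0.0168, 2.33% of genes called higher). In the 4 pools without Y-linked transcripts it was 1.12 (edgeR adjusted p = 0.0448, 0.4% of genes called higher). Its log2 fold change was between 0.60 and 1.12 in all 20 other settings, 16 of which did not call it. With the mean log2 level of vessel wall and fibroblast genes as a covariate it was 0.69 (edgeR adjusted p = 0.9999). Summed levels of endothelial genes did not overlap between the groups (1167 to 1550 CPM in KO pools, 2161 to 3617 CPM in WT pools). Those of mural (pericyte and smooth muscle) genes did not either (1214 to 1784 CPM and 1944 to 3192 CPM), while fibroblast sums overlapped. That covariate thus largely follows genotype, and the effects of each cannot be told apart well in these pools. Ccr7 and Egfr are both on chromosome 11, with 82.2 Mb between them.

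Fscn1, which bundles actin in the protrusions of mature dendritic cells, overlapped between the groups. Fscn1 (ENSMUSG00000029581, chr5:142960343-142973185, plus strand) had 48.5, 54.95 and 68.9 CPM in KO pools and 54.8, 57.6 and 97.7 CPM in WT pools. WT pool 3 was the highest of the 6 (57.5 ± 10.45 CPM in KO pools against 70.04 ± 24.0 CPM in WT pools, log2 fold change -0.29, SE 0.24, edgeR adjusted p = 0.616). Per kilobase of exon, the ratio of Ccr7 to Fscn1 within a library was 2.66, 2.55 and 2.54 in KO pools, against 1.57, 1.32 and 0.664 in WT pools. The difference in this log2 ratio was 1.21, with an exact two-sided permutation p of 0.1, the smallest that 3 against 3 pools allow, and 0.36 after Benjamini-Hochberg adjustment over the 6 ratios compared. The 6 ratios were chosen after their values were seen. Fscn1 is also made by vascular and connective tissue cells, whose genes were lower in KO pools. With the level of those genes as a covariate its log2 fold change was 0.59 (edgeR adjusted p = 0.9999), and without WT pool 3 it was 0.04 (edgeR adjusted p = 0.964), so its sign turned in both. The covariate largely follows genotype, so the first of these values does not separate genotype from the content of those cells.

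**Figure D2:**
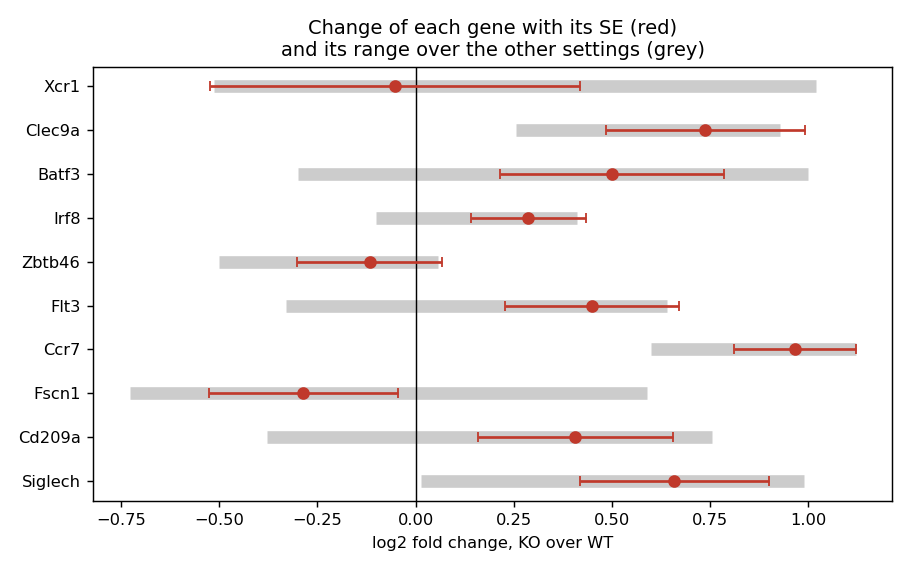
Log2 fold change of each of the 10 genes for KO over WT pools from edgeR, with its standard error, and the range of its value over the other settings, 20 in all and 19 for Clec9a and Xcr1. Ccr7 lies at 0.97 and its range of 0.60 to 1.12 stays above 0, as do those of Clec9a and Siglech, whereas the ranges of the other 7 cross 0.

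Cd209a, a lectin of monocyte-derived and type 2 cells, had the highest level per kilobase. Cd209a (ENSMUSG00000031494, chr8:3743397-3748984, minus strand) had 83.1, 109.5 and 116 CPM in KO pools and 103, 78.8 and 51.2 CPM in WT pools. WT pool 1 lay inside the KO range and the groups overlapped (103 ± 17.5 CPM in KO pools against 77.6 ± 25.9 CPM in WT pools, log2 fold change 0.41, SE 0.25, edgeR adjusted p = 0.478). The 6 related genes Cd209b to Cd209g had log2 fold changes of -0.08 to 0.76, with an edgeR adjusted p of 0.478 at the lowest, and reads shared between such copies may be lost. The window at the Cd209a start (RefSeq, GRCm38.p6, chr8:3748935-3749234, minus strand) is shown because it holds an ETS to IRF composite element, searched on both strands as GGAA, 2 bases of any kind and GAAA, and marked in capitals. It begins 9 bases before the start and ends on the start base.
Cd209a: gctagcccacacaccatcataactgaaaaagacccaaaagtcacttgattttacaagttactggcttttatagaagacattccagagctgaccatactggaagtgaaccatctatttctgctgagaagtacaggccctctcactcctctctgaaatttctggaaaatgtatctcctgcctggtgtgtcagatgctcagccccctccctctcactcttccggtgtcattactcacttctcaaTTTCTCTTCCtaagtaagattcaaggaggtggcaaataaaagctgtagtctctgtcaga
That element is in 892 of 32851 windows (2.72%). No member window had the interferon response core of GAAA, 2 bases of any kind and GAAA (3.44% of windows), the PU.1 site GAGGAAGT (3.2%) or the NF-kB consensus (4.51%).

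Siglech, a sialic acid lectin of plasmacytoid cells (ENSMUSG00000051504, chr7:55768178-55778925, plus strand), had 13.4, 16.5 and 18.9 CPM in KO pools and 13.5, 9.9 and 7.45 CPM in WT pools. WT pool 1 was level with KO pool 1, and the other two WT pools lay below all KO pools. Means were 16.2 ± 2.77 CPM in KO pools and 10.3 ± 3.03 CPM in WT pools (log2 fold change 0.66, SE 0.24, edgeR adjusted p = 0.263). Siglech is also transcribed in microglia and marginal zone macrophages in mice. Without WT pool 1, Siglech and Batf3 passed the test beside Ccr7 (edgeR log2 fold changes 0.91 and 0.92, adjusted p = 0.0476 and 0.0255, 2.33% of genes called higher). WT pool 1 was the highest WT pool for each of these genes, so leaving it out raises their fold changes. Batf3 and Ccr7 passed in the 4 pools without Y-linked transcripts (1.00 for Batf3, edgeR adjusted p = 0.0454, 0.4% of genes called higher). That setting also leaves out WT pool 1, and with it KO pool 1, the lowest KO pool for both.

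The share of all genes called in either direction varied widely with the setting: 5.51% with DESeq2, 2.7% without an expression filter, 2.58% in the 4 pools without Y-linked transcripts and 8.3% without WT pool 1. In the other settings none of the 10 genes passed. The share of all genes was then 6.86% with pan-leukocyte scaling, 0.0181% at a mean CPM of at least 5, 0.0184% with the replicate block or the Y-linked term, 0.00637% with limma-voom and 0.00612% with either covariate for other cells. It was 0.0062%, 0.00618% and 0.0124% without KO pools 1, 2 and 3, 0.00625% and 0.00618% without WT pools 2 and 3, and 0.0127% with the remaining scalings and bias-adjusted deviances.

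WT pool 1 was the highest WT pool for 8 of the 10 genes. It lay inside the KO range for 5 of the 10 (Batf3, Irf8, Fscn1, Cd209a and Siglech), and for Fscn1 it was the lowest WT pool. WT pool 3 was the lowest WT pool for Clec9a, Flt3, Ccr7, Cd209a and Siglech. In the Y-positive pair alone, with 1 pool a group and no test, log2 of KO pool 1 over WT pool 1 was 0.58 for Ccr7, 0.59 for Clec9a and 0.47 for Xcr1, and between -0.55 for Zbtb46 and 0.23 for Flt3 for the others.

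Compared per kilobase of exon, the order of levels was similar in KO and WT pools, with Cd209a first and Xcr1 last. The cells were selected for Cd11b, so these levels do not give the share of each dendritic cell subset in the heart. In KO pools Cd209a stood at 65.0 ± 11.1 CPM per kilobase and Ccr7 at 49.1 ± 7.93, and these overlapped. Irf8 (23.4 ± 1.76), Fscn1 (19.1 ± 3.47) and Batf3 (13.9 ± 2.08) followed, with overlap between Irf8 and Fscn1 only. Siglech (4.80 ± 0.82), Flt3 (3.54 ± 0.211), Zbtb46 (2.84 ± 0.48), Clec9a (1.25 ± 0.155) and Xcr1 (0.195 ± 0.0725) each stood clear of the next. In WT pools Ccr7 (25.2 ± 3.55), Fscn1 (23.3 ± 7.97) and Irf8 (19.2 ± 3.24) ran together, and so did Zbtb46 (3.08 ± 0.557), Siglech (3.04 ± 0.894) and Flt3 (2.59 ± 0.767), with Cd209a at 49.0 ± 16.3 and Clec9a at 0.747 ± 0.157.

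**Figure D3:**
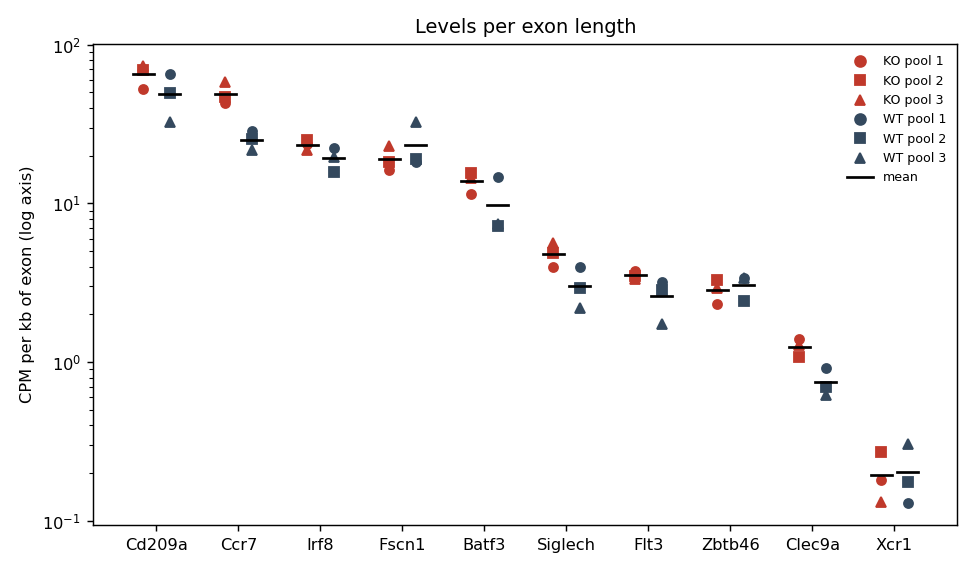
Level of the 10 genes per kilobase of exon in KO and WT pools, with 1 point a pool and a line at the mean, on a log axis of CPM per kilobase. Cd209a is highest in both groups (65.0 in KO pools, 49.0 in WT pools) and Xcr1 lowest (0.195 in KO pools, 0.203 in WT pools).

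Other genes of the same subsets were read as lists, each gene with the same test, and none passed in edgeR. At an unadjusted edgeR p under 0.05, 1 of 12 type 1 and 3 of 10 type 2 genes were higher in KO pools. So were 5 of 18 migratory and 2 of 11 plasmacytoid genes, against 4.77% of all genes. Lower were 1 migratory and 1 plasmacytoid gene, against 10.6% of all genes. DESeq2 called 3 genes of these lists, all migratory and higher in KO pools, beside 1.13% of all genes called higher and 5.51% in either direction. Without WT pool 1, with 2.33% of all genes called higher and 8.3% in either direction, edgeR called 8 higher in KO pools: Naaa, Clec10a, Itgax, Mgl2, Il4i1, the development factors Spi1 and Kmo, and the receptor Csf2ra. In that setting it called the migratory gene Socs2 lower, and Socs2 is named here after its value was seen. Of 12 other type 1 genes, 9 were positive and 3 negative (median log2 fold change 0.20), and Naaa, an amidase, was the member whose KO pools all lay above the WT pools (142 CPM in KO pools against 107 CPM in WT pools, log2 fold change 0.41, SE 0.14, edgeR adjusted p = 0.242). Of 10 other type 2 genes 8 were positive (median 0.36), including the lectin Mgl2 at 0.50, the lectin Clec10a at 0.61 and the integrin Itgax at 0.44. All 11 development factors had positive values (median 0.19), with none whose pools separated. Of 5 tested ligand and growth factor receptor genes 3 were positive, and of 11 tested plasmacytoid genes 6, with medians of 0.21 and 0.07. Spib, a transcription factor shared with B cells, was at 0.71 (SE 0.23, edgeR adjusted p = 0.235, and 0.0437 without an expression filter), and Ly6d was at 0.69. Tcf4, the defining factor of plasmacytoid cells and also read in vessel cells, was lower in every KO pool than in every WT pool (log2 fold change -0.38, edgeR adjusted p = 0.243). With pan-leukocyte scaling, which moves the median of all genes by -0.40, Tcf4 was at -0.80 and passed (edgeR adjusted p = 0.0481, beside 6.86% of all genes called).

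Of the dendritic cell lists, the mature migratory one, also the longest, had the most genes whose groups did not overlap. Of 18 other genes 16 had positive values (median 0.24). Every KO pool lay above every WT pool for 6 of the 18, against 9.59% of all genes. The summed level of the list overlapped, at 848.9 to 1208 CPM in KO pools and 742.7 to 1140 CPM in WT pools. Il4i1, an amino acid oxidase, had 22.7, 20.7 and 31.05 CPM in KO pools, against 14.9, 6.62 and 6.66 CPM in WT pools. Apol7c, an apolipoprotein L family gene, had 3.90, 3.30 and 8.62 CPM in KO pools, against 1.66, 1.62 and 1.72 CPM in WT pools. Il12b, a subunit of interleukins 12 and 23, had 3.29, 4.91 and 5.12 CPM in KO pools, against 2.00, 2.45 and 2.00 CPM in WT pools. In all 3 the groups did not overlap (log2 fold changes 1.39, 1.66 and 1.05, edgeR adjusted p of 0.19, 0.185 and 0.192). DESeq2 called them (adjusted p = 0.00275, 0.00536 and 0.0274), beside 1.13% of all genes called higher. These 3 were named for the smallest edgeR p of the list among genes averaging 1 CPM or more. Their separation and DESeq2 calls are therefore not independent of that choice. Il4i1 also passed in edgeR with pan-leukocyte scaling (adjusted p = 0.0426), without an expression filter (0.00553), without WT pool 1 (0.0134) and in the 4 pools without Y-linked transcripts (0.0407). Those last settings both leave out WT pool 1, the highest WT pool for Il4i1. Ccl22, a chemokine of mature dendritic cells named after its values were seen, had 24.98, 21.7 and 44.95 CPM in KO pools, against 16.1, 17.7 and 19.0 CPM in WT pools (log2 fold change 0.79, edgeR adjusted p = 0.244). KO pool 3 was the highest library for Ccr7, Il4i1, Apol7c, Il12b and Ccl22.

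**Figure D4:**
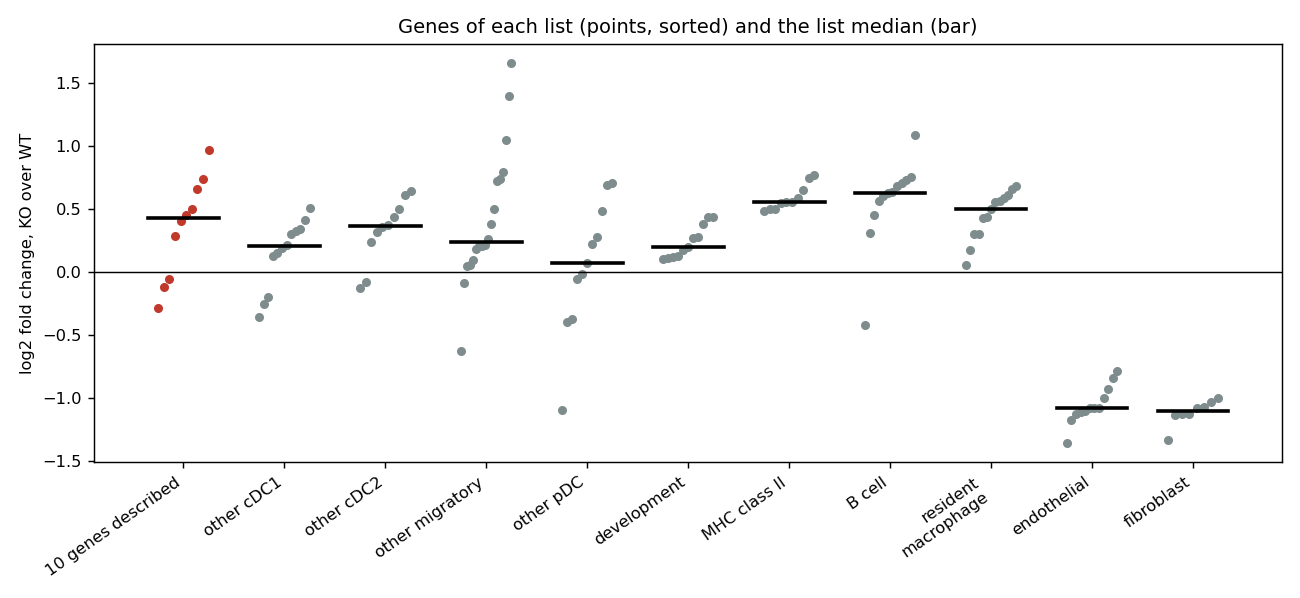
Log2 fold changes of the tested genes of each dendritic cell list and of lists of other cells for KO over WT pools, with 1 point a gene and a bar at the median. Medians are 0.43 for the 10 dendritic cell genes, 0.36 for other type 2 genes, 0.24 for other migratory genes and 0.07 for other plasmacytoid genes.

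Genes of other cell types differed between the pools too, and their part in these values was not tested. All 12 endothelial genes were negative (median -1.08, summed level 1167 to 1550 CPM in KO pools and 2161 to 3617 CPM in WT pools), as were all 8 fibroblast genes (median -1.11, 1461 to 2147 CPM in KO pools and 1900 to 6122 CPM in WT pools). All 12 pan-leukocyte genes were positive (median 0.37), with summed levels of 7961, 7060 and 6803 CPM in KO pools and 7070, 5182 and 4668 CPM in WT pools. The summed level of the 10 dendritic cell genes was 462.5, 529.6 and 545.2 CPM in KO pools and 460.3, 360.7 and 392.3 CPM in WT pools. Per 10000 reads of the pan-leukocyte genes, Ccr7 had 106.5, 130.4 and 169 reads in KO pools, against 80.1, 96.6 and 91.3 in WT pools, still without overlap and with a ratio of 1.51. Clec9a also stayed above on this scale (5.76, 5.06 and 6.16 in KO pools against 4.30, 4.43 and 4.39 in WT pools). Zbtb46 lay below (24.8, 39.4 and 36.6 in KO pools against 40.9, 39.9 and 61.8 in WT pools), though 39.4 in KO pool 2 was close to 39.9 in WT pool 2. The other 7 overlapped, Flt3 among them. The share of all genes without overlap on this scale was not worked out. With pan-leukocyte scaling the median log2 fold change of all genes was -0.396, so values lean lower in KO pools.

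B cells share Ccr7, Irf8 and Spib, and the part of B cells in these values was not tested. In the B cell list 11 of 12 values were positive (median 0.63), at summed levels of 1492, 2060 and 1420 CPM in KO pools and 1346, 1152 and 1234 CPM in WT pools, and none was at 0 in all libraries. Every KO pool lay above every WT pool for 7 of the 12, against 9.59% of all genes. At an unadjusted edgeR p under 0.05, 9 were higher and 1 lower, against 4.77% and 10.6% of all genes. None passed in edgeR, and DESeq2 called 4 higher in KO pools, beside 1.13% of all genes called higher. Per 1000 CPM of the B cell list, Ccr7 had 56.8, 44.7 and 80.9 CPM in KO pools and 42.1, 43.4 and 34.5 CPM in WT pools. These did not overlap, though 44.7 in KO pool 2 was close to 43.4 in WT pool 2. The exact two-sided permutation p was 0.1, the smallest possible, with no adjustment for the other genes put on that scale. The ratio does not show which cells held the Ccr7 RNA. Irf8, Flt3 and Siglech overlapped on that scale. T cell genes, whose part was not tested either, were highest in WT pool 2. Tcf7 was at 92.0 CPM in KO pool 3, the highest KO pool, and at 373 CPM in WT pool 2, where the thymocyte genes Dntt and Cd8a stood at 139 and 145 CPM. MHC class II genes, which dendritic cells, B cells and macrophages share, were all positive (10 of 10, median 0.56), and so were all 13 resident macrophage genes (median 0.50).

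**Figure D5:**
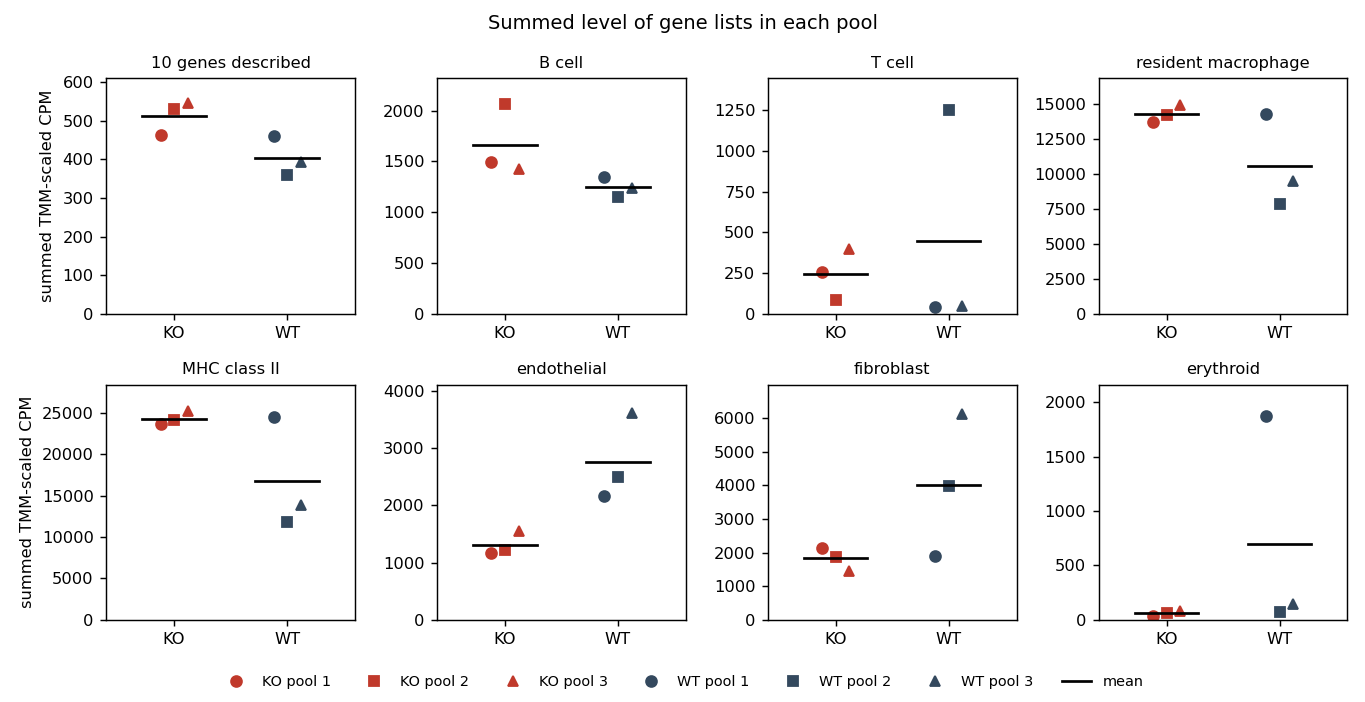
Summed level of the 10 dendritic cell genes and of 7 lists of other genes in each KO and WT pool, in TMM-scaled CPM on linear axes from 0, with a line at the mean. The B cell sum is 1420 to 2060 CPM in KO pools and 1152 to 1346 CPM in WT pools, and the endothelial sum is lower in every KO pool than in every WT pool.

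Genes with the nearest pattern over the 6 libraries were found by the root mean square difference in centred log2 CPM among 12749 genes, a description with no test. For Ccr7 these were Wdfy1 (0.139), Sept2 (0.148) and Rad51b (0.164). Wdfy1 had 26.1, 31.3 and 31.05 CPM in KO pools, against 16.1, 13.9 and 14.8 CPM in WT pools (log2 fold change 0.98, edgeR adjusted p = 0.108), and it passed with DESeq2. For Siglech they were Mcoln2 (0.104), Dnaaf3 (0.11) and Ly9 (0.111), and for Cd209a they were Ankrd66 (0.0943), Mob3b (0.127) and Siglech itself (0.14). For Xcr1 they were Mst1r (0.124), Aldh5a1 (0.145) and Ltbp1 (0.161), at distances that the 15 to 31 reads of Xcr1 leave uncertain.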

How the data were processed

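Each of the 6 libraries has a table of whole-number read counts per Ensembl gene, as deposited and not normalized. The authors' steps are known only in part: the submitters' processing notes name STAR, HTSeq, DESeq2 and the build GRCm38, with no versions. Whether counting used strand is not stated there. Reads outside genes, on several genes or at several places were left out (5.90% to 8.62%, 1.49% to 1.72% and 7.58% to 8.67% of reads).

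The counts were tested with edgeR 4.0.16 in R 4.3.3: filterByExpr (minimum count 10), TMM scaling, the quasi-likelihood test of KO against WT with no other term, and Benjamini-Hochberg adjustment over 15707 genes (threshold 0.05). The edgeR fit was also run on simulated counts, with the same spread between replicates for every gene and no differences in cell content between pools. The real pools did differ in cell content, so that run does not show how the test performs on them. DESeq2 1.42.0, limma-voom 3.58.1, other scalings and filters, the replicate block, a Y-linked term and each library left out were tried. Added after seeing the data were bias-adjusted deviances, T cell and vessel wall with fibroblast covariates, and the 4 pools without Y-linked transcripts. Each covariate was the mean log2 CPM of its listed genes in a library. Leaving out a library compares 3 pools with 2, and the pools without Y-linked transcripts compare 2 with 2. Figures used matplotlib 3.10.9. Poisson intervals (95%) cover counting error only.

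The members, lists and tests were chosen with earlier results of these data known. All 10 members are given. From other dendritic cell lists, up to 3 genes are named, those of smallest edgeR p among genes averaging 1 CPM or more, and lists of other cells are given mainly as sums. Gene names came from the name table (55141 of 55487 identifiers) and coordinates and lengths from GENCODE M21. Libraries of 1 group differed beyond counting noise (chi-square over degrees of freedom, 34.7 to 76.5), so none was counted as a repeat.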

Additional observations from a re-analysis of the deposited data

How the results depend on the processing

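The number of genes passing over all genes was 2 and among the 10 dendritic cell genes 0. These were 831 and 1 with DESeq2, 782 and 1 without an expression filter, 407 and 2 in the 4 pools without Y-linked transcripts, 1077 and 0 with pan-leukocyte scaling, and 1 and 0 with limma-voom, the T cell covariate or the vessel wall and fibroblast covariate. The Y-linked term gave 3 and 0. With each library left out in turn the counts ran from 1 to 1338 and from 0 to 3, the highest without WT pool 1. The cause was not tested. Under the replicate block the counts were 3 and 0; same-numbered pools had correlated deviations of 0.149, -0.193 and 0.0323, so the numbers were not taken to pair the pools. Pan-leukocyte scaling shifted the median of all genes by -0.40 and gave the 10 genes a median of 0.09 and Ccr7 0.60 (edgeR adjusted p = 0.127).

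Signs changed for some genes, with these log2 fold changes. Pan-leukocyte scaling gave Irf8 -0.0996, Ppt1 -0.0872, Csf2rb -0.151, Mst1r -0.455, Aldh5a1 -0.44 and Mob3b -0.0592. Library totals gave Mst1r -0.0187 and Aldh5a1 -0.0321, and a mean CPM of at least 5, which drops Clec9a and Xcr1, gave Mst1r -0.00304. The T cell covariate gave Xcr1 0.00789. The vessel wall and fibroblast covariate gave Xcr1 1.02, Batf3 -0.30, Flt3 -0.329, Fscn1 0.589, Cd209a -0.377, Itgax -0.122, Clec10a -0.186, Spi1 -0.0983, Kmo -0.253, Csf1r -0.0467, Csf2ra -0.242, Csf2rb -0.439, Ltbp1 0.766, Ankrd66 -0.63, Mob3b -0.402 and Dnaaf3 -0.0957. The vessel wall and fibroblast covariate largely follows genotype, so the sign changes under it do not separate genotype from the content of those cells. The 4 pools without Y-linked transcripts gave Zbtb46 0.0582, Mst1r -0.261 and Aldh5a1 -0.173. With a library left out, Xcr1 ran from -0.372 to 0.361, Zbtb46 from -0.265 to 0.0126, Fscn1 from -0.444 to 0.0356, Mst1r from -0.259 to 0.41, Aldh5a1 from -0.21 to 0.27 and Ltbp1 from -0.516 to 0.0595. Ccr7, Clec9a and Siglech stayed positive in every setting that tested them. Depth limits Xcr1 most. Egfr lost its call with limma-voom and the replicate block (adjusted p = 0.0534 in each), the T cell covariate (0.111), the vessel wall and fibroblast covariate (0.495, edgeR) and 5 of the 6 omissions of a library (0.113 to 0.353).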
